A study of Mus musculus with 4 samples.

Results

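The genes described here are 9 members of 3 families of liver and gut proteins that were read in thymic epithelial cells (TECs): the acute-phase proteins Saa1, Saa3 and Crp, the apolipoproteins Apoa1, Apoa4 and Apoc3, and the fatty-acid-binding proteins Fabp1, Fabp6 and Fabp9. They were chosen by symbol from the 31053 genes of the deposited count matrices, after their levels in medullary TECs (mTECs) of these same libraries had been seen. The values below that chose them are the levels in Aire-stage against post-Aire cells, and these are therefore given as a description. Single TECs were taken from the thymus of C57BL/6 mice at 6 weeks and read by RNA sequencing in droplets, in which every captured mRNA molecule receives a cell barcode and a unique molecular identifier (UMI).

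The 4 libraries formed a design of antibody by genotype. WT-Control mice were wild type and had received control IgG, and WT-RANKL-Ab mice were wild type and had received a neutralizing antibody against RANKL, the cytokine that activates the receptor RANK. Mice of the Cd40-/- Control and the Cd40-/- RANKL-Ab group lacked CD40, a second receptor of mTECs, and had received control IgG or the antibody. Injections were subcutaneous and made 2 weeks before the thymi were taken, the antibody at 5 mg/kg, and each library pooled 3 mice. The wild-type mice were purchased, so genotype and source of the animals cannot be told apart, and a design of 1 library each allows no test between conditions. Every interval given in parentheses is exact at the 95% level and covers counting error only. The molecules of these genes were clustered in few cells, so the intervals are narrower than the error of a repeated library would be.

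mTECs transcribe a broad range of genes that are otherwise confined to single peripheral organs, and present their products to developing T cells. The nuclear protein AIRE drives much of this transcription. After the Aire stage mTECs turn into post-Aire cells, among them mimetic cells that use the transcription factors of gut, liver, skin, lung or tuft cells and express the genes of those tissues. Serum amyloid A proteins and C-reactive protein belong to the acute phase of inflammation, apolipoproteins carry lipids in plasma, and fatty-acid-binding proteins carry fatty acids or bile acids inside cells.

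The genes lie in clusters that bear on the counting. In GENCODE M21 on GRCm38, Apoa1 (chr9:46228580-46230466, plus strand), Apoc3 (chr9:46232933-46235636, minus strand) and Apoa4 (chr9:46240696-46243459, plus strand) lie within 14880 bases of each other. Saa1 (chr7:46740497-46742980) and Saa3 (chr7:46711998-46715700) lie on the minus strand with start sites 27280 bases apart, and the near-identical paralog Saa2 starts 8810 bases from Saa1, so that reads of Saa1 and Saa2 may be split between them or lost. Fabp9 (chr3:10193621-10197283, minus strand) starts 11293 bases from Fabp4. Fabp1 is at chr6:71199827-71205023 on the plus strand and Fabp6 at chr11:43596049-43601540 on the minus strand. Crp spans chr1:172698055-172833031 on the plus strand because a noncoding transcript with a distant last exon is annotated to it, whereas its coding transcript ends at 172699962. The 3′ counts do not tell these transcripts apart. An antisense gene overlaps Apoa4 and a second annotated gene overlaps Fabp9, and whether reads of these members were lost was not tested.

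Promoters are shown for the 5 members whose patterns the results turn on: Saa3 as the gene with the largest post-Aire ratio and Saa1 as its neighbour, Apoa4 of the apolipoprotein cluster, Fabp1 for its level in microfold cells, and Crp as the gene with a different distribution. RefSeq promoters on GRCm38.p6 were found for 7 of the 9 members, and the 250 bases before the start site are printed 5′ to 3′ on the strand of the gene. Capitals mark matches of either strand to 3 motifs: TATAAA (the TATA box), CAAAGTNCA (paired sites of HNF4) and TTNNGNAAT (C/EBP).
Saa3, chr7:46715677-46715926, minus strand: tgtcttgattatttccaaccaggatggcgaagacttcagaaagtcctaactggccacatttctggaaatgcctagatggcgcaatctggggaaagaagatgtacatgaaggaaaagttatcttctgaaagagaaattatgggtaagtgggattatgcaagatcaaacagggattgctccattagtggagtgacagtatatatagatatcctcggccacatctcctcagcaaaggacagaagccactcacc
Saa1, chr7:46742981-46743230, minus strand: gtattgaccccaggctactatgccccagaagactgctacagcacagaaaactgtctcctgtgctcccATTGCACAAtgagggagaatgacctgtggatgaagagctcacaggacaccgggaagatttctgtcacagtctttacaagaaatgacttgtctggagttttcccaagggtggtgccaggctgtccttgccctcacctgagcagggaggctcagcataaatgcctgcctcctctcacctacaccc
Apoa4, chr9:46240594-46240843, plus strand: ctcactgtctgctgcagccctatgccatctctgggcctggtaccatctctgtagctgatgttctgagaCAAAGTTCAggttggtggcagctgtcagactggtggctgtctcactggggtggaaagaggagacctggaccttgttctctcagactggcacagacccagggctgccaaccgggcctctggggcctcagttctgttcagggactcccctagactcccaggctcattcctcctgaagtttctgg
Fabp1, chr6:71199629-71199878, plus strand: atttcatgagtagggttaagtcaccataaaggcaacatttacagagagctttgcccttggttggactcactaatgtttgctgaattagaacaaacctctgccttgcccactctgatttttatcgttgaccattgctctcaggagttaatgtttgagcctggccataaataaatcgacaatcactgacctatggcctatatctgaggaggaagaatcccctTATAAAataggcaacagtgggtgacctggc
Crp, chr1:172697806-172698055, plus strand: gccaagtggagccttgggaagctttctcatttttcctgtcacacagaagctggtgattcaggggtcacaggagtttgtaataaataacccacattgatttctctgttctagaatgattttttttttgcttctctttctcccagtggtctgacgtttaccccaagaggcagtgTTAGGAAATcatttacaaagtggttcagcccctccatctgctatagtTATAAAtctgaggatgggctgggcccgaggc

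Starts and distances here are those of RefSeq, which can differ from the GENCODE gene starts: the RefSeq start of Apoa4 is at 46240844, so the last printed bases lie inside the GENCODE gene. In Saa1 the capitals are a C/EBP match on the opposite strand, 183 bases before the start. In Apoa4 they are an HNF4 match at 182 bases, and in Fabp1 a TATA box at 30 bases. Crp had a C/EBP match at 78 bases and a TATA box at 31 bases. None of the motifs searched was found in Saa3. Over windows of 300 bases, 250 before and 50 after the start, the TATA box was present in 3 of 7 members (Fabp1, Fabp6 and Crp) and in 13.6% of 32851 promoters, the C/EBP motif in 2 members and 11.5%, and the HNF4 motif in 1 and 1.41%. The NF-kB motif (GGGA, any base, TTTCC) was found in no member and in 0.411% of promoters. These letters are a description and not shown to be bound sites.

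Cells were sorted into classes by marker genes, none of which was a member. An Aire-stage cell had at least 3 Aire UMIs per 10000 UMIs of the cell and passed no mimetic gate. Post-Aire cells passed 1 of 6 mimetic gates (tuft, microfold, neuroendocrine, ciliated, keratinocyte or enterohepatic), each with at least 3 markers detected at 10 UMIs per 10000 in sum. The enterohepatic gate used genes of gut and liver epithelium such as Hnf4a, Hnf4g, Vil1, Muc13, Reg3g and Lgals4, the microfold gate genes such as Ccl9, Ccl20, Gp2 and Spib, and the keratinocyte gate genes such as Krt10, Krt1 and Krtdap. Ccl21a-high cells, cortical TECs (cTECs), progenitor-like and cycling cells were gated in the same way. These are gates and not clusters: among the 10 genes with the highest fold in each gate of WT-Control, 8 were gate markers for keratinocyte, 4 for tuft, 1 for enterohepatic, and none for microfold or Aire-stage cells, and no member was among them. A level in CPM is the number of UMIs of a gene per 1000000 UMIs of the class. In post-Aire cells of WT-Control, Aire stood at 263 CPM against 845 CPM in Aire-stage cells. It was at 368 CPM in microfold, 375 in neuroendocrine, 313 in keratinocyte and 339 in enterohepatic cells. In tuft and ciliated cells it was at 63.8 and 45.4 CPM. The mimetic gates set no limit on Aire, so the name post-Aire does not mean that a cell lacked Aire, and its stage was not tested.

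The libraries held 10218, 7164, 8591 and 2082 cells after filtering, listed with the wild type before the Cd40-/- mice and the control before the antibody, an order that is kept throughout, with medians of 7622, 6086, 6267 and 7532 UMIs per cell. Cd40 itself was read at 110.0, 28.8, 5.75 and 4.75 CPM. Aire-stage cells numbered 1968, 198, 1256 and 2, and post-Aire cells 1389, 742, 981 and 59. Tuft cells made up 554 of the 742 post-Aire cells of WT-RANKL-Ab and 53 of the 59 of Cd40-/- RANKL-Ab, but 393 of 1389 in WT-Control, so the post-Aire class was of another composition after the antibody. The Cd40-/- libraries shared 205 barcodes, 9.85% of the smaller library, against 0.817% to 1.42% between other pairs. Without the barcodes found in more than 1 library, Saa1 in Cd40-/- RANKL-Ab was at 0.363 CPM (0.522 with them), Fabp1 at 3.20 CPM (2.51) and Apoa1 in WT-RANKL-Ab at 14.0 CPM (17.1). Again 8 members were 2-fold lower in each antibody library than in WT-Control, and the share of all genes was not computed without these barcodes.

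Over all cells of WT-Control the acute-phase gene Saa3 was read at 471 CPM (467 to 476), from 44923 UMIs. In the same order of libraries its level was 471, 29.3, 388 and 1.46 CPM, so the antibody-treated wild type lay 16.1-fold (15.3 to 17.0) below WT-Control and Cd40-/- Control only 1.21-fold (1.20 to 1.23) below. Fewer cells of a type and less RNA per cell cannot be told apart in such whole-library levels. Saa1, which encodes a second serum amyloid A protein, stood at 252, 18.7, 179 and 0.522 CPM. Both genes were low in the antibody libraries, and of Saa1 the Cd40-/- RANKL-Ab library held 10 UMIs in all.

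The apolipoproteins followed the same order of libraries. Apoa1, the main protein of high-density lipoprotein, was read at 147, 17.1, 86.5 and 0.157 CPM, Apoa4, which intestinal cells secrete with chylomicrons, at 160.4, 22.6, 94.2 and 0.209 CPM, and Apoc3, an inhibitor of lipoprotein lipase, at 71.8, 10.8, 44.6 and 0.0522 CPM. In Cd40-/- RANKL-Ab these levels rested on 3, 4 and 1 UMIs. WT-RANKL-Ab lay 8.58-fold (8.0 to 9.21) below WT-Control for Apoa1, 7.09-fold (6.67 to 7.55) for Apoa4 and 6.63-fold (6.07 to 7.26) for Apoc3. Loss of CD40 alone went with levels 1.61- to 1.70-fold lower for the 3 genes.

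Among the carriers, Fabp6, the ileal bile acid-binding protein, differed most between the wild-type libraries: 243, 13.9, 126 and 0.261 CPM, a 17.4-fold (16.1 to 18.8) lower level after the antibody. Fabp1, the liver fatty-acid-binding protein, was at 87.4, 12.5, 56.2 and 2.51 CPM and Fabp9, which is known from testis, at 142, 22.4, 134 and 0.365 CPM. Fabp9 was the member that differed least between the control libraries of both genotypes, with a ratio of 1.06-fold (1.03 to 1.09), while Fabp6 was 1.93-fold (1.88 to 1.97) lower without CD40. In the Cd40-/- RANKL-Ab library Fabp1 kept 48 UMIs, of which 24 were in a single cell, the only one past the microfold gate there.

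Crp differed from the other 8 genes in WT-RANKL-Ab. It encodes C-reactive protein, which in the mouse is only a weak acute-phase reactant, and it was read at 34.7, 58.0, 22.4 and 26.1 CPM. WT-RANKL-Ab was 1.67-fold (1.59 to 1.76) above WT-Control, Cd40-/- Control 1.55-fold (1.46 to 1.65) below it and Cd40-/- RANKL-Ab 1.33-fold (1.21 to 1.46) below it. By a 2-fold limit with 1 CPM added, 8 of the 9 members were lower in WT-RANKL-Ab than in WT-Control, where 13.6% of all genes tested were, and the same 8 were lower in Cd40-/- RANKL-Ab, where 18.9% of genes were. None of the 9 passed that limit in Cd40-/- Control, where 1.11% of genes were lower. The comparisons share the WT-Control library.

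**Figure D1:**
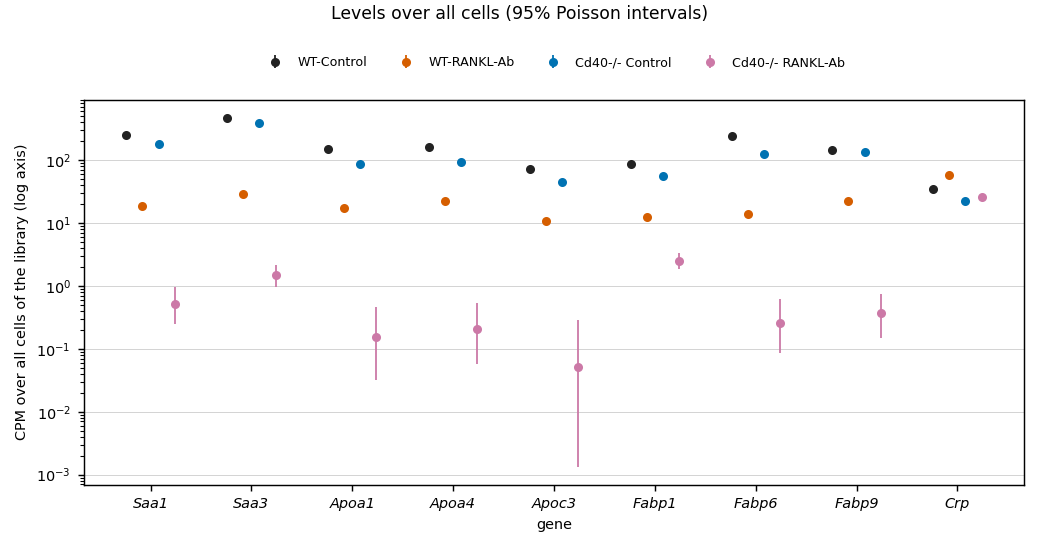
Level of each member in CPM over all cells of a library (vertical log axis), with 1 point per library and 95% Poisson intervals. For 8 members the antibody libraries lie below both control libraries, and for Crp the WT-RANKL-Ab point at 58.0 CPM is the highest of the 4.

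Markers of other cells moved with these levels. The summed level of the 3 neutrophil markers S100a8, S100a9 and Ngp, all detected, was 912, 38.8, 616 and 3.86 CPM in the 4 libraries, and 1834 CPM in Aire-stage cells of WT-Control. The 5 macrophage and dendritic markers, all detected, summed to 438, 88.7, 362 and 6.74 CPM, the 3 erythroid markers to 137, 2.22, 36.3 and 0.522 CPM, the 4 sperm markers to 10.6, 0.658, 4.71 and 0.261 CPM, and the 5 enterocyte markers to 57.0, 6.80, 39.9 and 0.157 CPM. The 5 hepatocyte markers, Alb, Serpina1a, Serpina1b, Cyp2e1 and Cps1, were low throughout at 10.5, 3.12, 10.2 and 1.62 CPM. Detected in part only, Tnp1 of the sperm list was at 0 in WT-RANKL-Ab and Prm2 and Tnp1 in Cd40-/- RANKL-Ab, where the enterocyte genes Alpi, Fabp2 and Slc10a2 were also at 0. Serpina1a was at 0 in WT-RANKL-Ab, and Alb, Serpina1a and Cyp2e1 were at 0 in Cd40-/- RANKL-Ab. Tissue-restricted genes of this kind are also transcribed by mTECs, and the part of other cells in the levels of the members was not tested.

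The central comparison set post-Aire against Aire-stage cells within a library. In WT-Control Saa3 was read at 212 CPM (206 to 219) in Aire-stage and 1551 CPM (1529 to 1573) in post-Aire cells, a ratio of 7.30 (7.07 to 7.54). Saa1 went from 135 CPM (130 to 139.6) to 698 CPM (683 to 713), a ratio of 5.18 (4.97 to 5.40). Both serum amyloid genes were thus several times more abundant per UMI in the post-Aire class as a whole. In cTECs of this library Saa3 was close to its Aire-stage level, as given below, and the part of free RNA was not tested. This did not hold in its tuft cells, where Saa1 was 2-fold lower than in Aire-stage cells and Saa3 was at 247 CPM. Of Aire-stage cells 8.08% held 5 or more Saa3 UMIs, and of post-Aire cells 18.4%, so the share of cells differed less than the level did. For Saa1 these shares were 7.01% and 16.1%. After each cell was thinned to 1000 UMIs, the share with at least 1 Saa3 UMI was 10.2% in Aire-stage and 17.8% in post-Aire cells, and 2.63% in Ccl21a-high cells, which precede the Aire stage.

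The 3 neighbouring apolipoprotein genes did not share 1 ratio. Apoc3 was 5.83-fold (5.41 to 6.28) higher in post-Aire cells, at 41.5 and 242 CPM. Apoa4 was 2.02-fold (1.94 to 2.10) higher, at 207 and 418 CPM, and Apoa1 1.37-fold (1.31 to 1.43) higher, at 225 and 308 CPM. Within 1 gene cluster of 14880 bases the ratio thus ranged from 1.37 to 5.83. By shares of cells with 5 or more UMIs, Apoc3 went from 2.64% to 7.85%, Apoa4 from 8.64% to 11.2% and Apoa1 from 4.57% to 5.47%.

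The fatty-acid-binding proteins diverged in direction. Fabp1 (42.4 and 170.2 CPM) and Fabp9 (85.8 and 333 CPM) were 4.01-fold (3.71 to 4.33) and 3.88-fold (3.67 to 4.10) higher in post-Aire cells. Fabp6 was instead read at 474 CPM (465 to 483) in Aire-stage and 393 CPM (382 to 404) in post-Aire cells, a ratio of 0.828 (0.80 to 0.857). Its share of cells with 5 or more UMIs was 9.50% in Aire-stage and 4.39% in post-Aire cells, and the Aire-stage class held 46.2% of its UMIs in the library. Crp was close to equal, at 12.1 and 11.4 CPM with a ratio of 0.937 (0.757 to 1.15).

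By the 2-fold limit, 6 of the 9 members were higher in post-Aire cells of WT-Control (Saa1, Saa3, Apoa4, Apoc3, Fabp1 and Fabp9), against 10.5% of 18353 genes tested, and none was lower, against 3.88% of genes. Their median log2 ratio was 1.94, where that of all genes was 0.14. Since this contrast chose the genes, nothing is read from the count. Just inside the limit was Apoa4 with a log2 ratio of 1.01, and just outside Apoa1 with 0.45. The same 6 were higher in Cd40-/- Control, where 12% of genes were. There Saa3 stood at 242 and 1725 CPM, a ratio of 7.12 (6.84 to 7.42), Saa1 at 109 and 743 CPM, a ratio of 6.79 (6.39 to 7.23), and Fabp9 at 93.8 and 537 CPM, a ratio of 5.73 (5.35 to 6.13). Fabp6 was again lower in post-Aire cells, at 319 and 252 CPM, a ratio of 0.791 (0.746 to 0.838). Apoa4 and Apoc3 had ratios of 2.14 and 4.46 there, Fabp1 of 4.19, Apoa1 of 1.98 and Crp of 0.928.

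The ratios of WT-Control depended on which cells stood for the post-Aire stage. Without enterohepatic cells 4 of 9 members were 2-fold higher, with log2 ratios of 1.19 for Saa1, 1.20 for Saa3, 1.66 for Fabp1 and 1.35 for Fabp9, while Apoc3 stood at 0.72, Apoa1 at -0.25 and Apoa4 at -0.33, the last 2 now below 0. The share of all genes past the limit was not computed for this choice of cells, so nothing is read from the count. Fabp6 had a log2 ratio of -0.27 against Aire-stage cells, 0.13 without tuft cells and -3.07 when only post-Aire cells with no Aire UMI were kept. From Aire-stage to post-Aire cells the enterocyte markers went from 37.9 to 184 CPM and the hepatocyte markers from 11.4 to 23.7 CPM, while the neutrophil markers were at 1834 and 1447 CPM, and their part in the ratios was not tested.

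In WT-RANKL-Ab the ratios were of another kind, from 198 Aire-stage cells and a post-Aire class that was mostly tuft cells. Saa3 was at 376 CPM in Aire-stage and 70.0 CPM in post-Aire cells, a ratio of 0.186 (0.159 to 0.217), and Apoa1 at 186 and 10.4 CPM. Fabp6 was 181 and 8.13 CPM. None of the 9 members was 2-fold higher in post-Aire cells, against 29.4% of genes, and 4 were 2-fold lower (Saa3, Apoa1, Fabp6 and Crp), against 11.5%. In WT-Control tuft cells alone Saa3 was at 247 CPM, Apoa1 at 26.6 CPM and Fabp6 at 17.6 CPM. The 2 Aire-stage cells of Cd40-/- RANKL-Ab allowed no ratio.

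**Figure D2:**
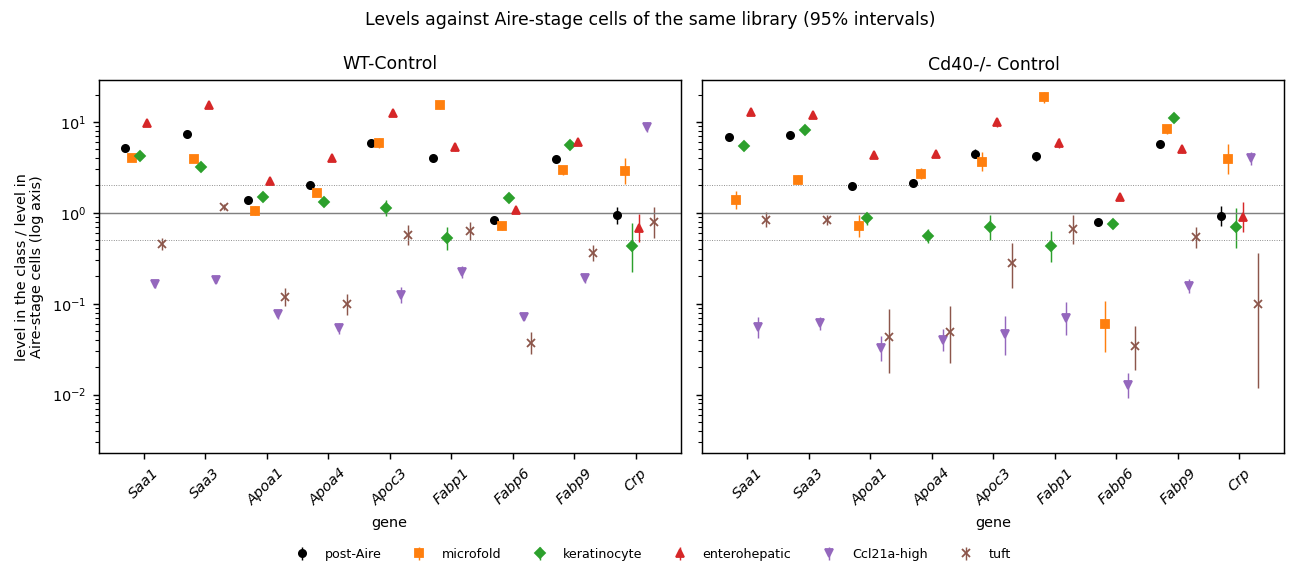
Level of each member in post-Aire cells and in 5 single classes divided by its level in Aire-stage cells of the same library (vertical log axis, 95% intervals), for WT-Control and Cd40-/- Control. Dotted lines mark 2-fold. Fabp1 in microfold cells (15.2) and Saa3 in enterohepatic cells (15.4) are the highest points of WT-Control, and Crp lies above 2 in Ccl21a-high cells.

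Within the post-Aire class, the 450 enterohepatic cells of WT-Control held a large part of the excess. Saa3 was read there at 3263 CPM (3211 to 3315), 15.4-fold (14.9 to 15.9) above Aire-stage cells, and these cells, 4.4% of the library, held 33.3% of its Saa3 UMIs. Saa1 was at 1324 CPM and 9.83-fold above Aire-stage cells. Apoc3 was at 520.1 CPM and 12.5-fold (11.6 to 13.5) above, and 34.9% of its UMIs lay in these cells. Apoa4 (826 CPM) was 3.99-fold and Apoa1 (501 CPM) 2.23-fold above. In all, 7 of 9 members were 2-fold higher, against 8.91% of 17627 genes, and the exceptions were Fabp6 with a ratio of 1.07 and Crp with 0.684. The hepatocyte markers summed to 29.2 CPM in these cells and the enterocyte markers to 392 CPM, with all 5 of each list detected.

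Enterohepatic cells of Cd40-/- Control (297 cells) had levels near those of WT-Control, with 2857 CPM of Saa3, 1416 of Saa1, 546 of Apoa1, 634 of Apoa4, 387 of Apoc3 and 474 of Fabp6. The 48 enterohepatic cells of WT-RANKL-Ab split the members. Apoc3 was at 523 CPM (438 to 621), where WT-Control had 520.1 CPM (499 to 541), and Apoa4 at 642 CPM (547 to 749), where WT-Control had 826 CPM (799.8 to 853). Saa3 was at 242 CPM from 61 UMIs, Apoa1 at 59.5 from 15 and Fabp6 at 11.9 from 3, each far below its WT-Control level. Of these 48 cells 9 held 5 or more Apoa4 UMIs and 4 held 5 or more Saa3 UMIs (18.8% and 8.33%), against 22.7% and 31.6% in WT-Control. The limit of 5 UMIs was not scaled to depth, which was lower in these cells of WT-RANKL-Ab, and its part was not tested. No enterohepatic cell was gated in Cd40-/- RANKL-Ab.

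Microfold cells, which mimic the antigen-sampling M cells of the gut, stood out by Fabp1. Its level was 646 CPM (603 to 692) in the 178 cells of WT-Control, 680 CPM (549 to 832) in the 37 of WT-RANKL-Ab and 696 CPM (630.2 to 768) in the 132 cells without CD40 and antibody, and the intervals of the 3 libraries overlap. Against Aire-stage cells the ratio was 15.2 (13.9 to 16.7) in WT-Control and 18.7 (16.3 to 21.4) in Cd40-/- Control. Cells with 5 or more Fabp1 UMIs made up 21.9%, 16.2% and 20.5% of the class. Apoa4 was at 346, 398 and 383 CPM in the 3 libraries and Apoc3 at 244, 369 and 143 CPM. Saa3 varied more, at 834, 188 and 562 CPM, as did Fabp6, at 341, 7.23 and 18.9 CPM. Cells past more than 1 gate, which were left out of every class, held 50.1% of the Fabp1 UMIs of WT-Control and 44.3% of those of Cd40-/- Control, at 463 and 392 CPM. Such cells may be doublets or cells with mixed markers, and these were not told apart. Of the 9 members 6 were 2-fold higher in microfold than Aire-stage cells of WT-Control, against 8.3% of genes.

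Fabp9 was high in keratinocyte-gated cells, which express the genes of the outer skin layers, but not in these alone. It was read at 483 CPM (455 to 513) in WT-Control (261 cells), 142 CPM (107 to 185) in WT-RANKL-Ab (57 cells) and 1029.5 CPM (982 to 1078) in Cd40-/- Control (255 cells), 5.63-fold (5.23 to 6.07) and 11-fold (10.2 to 11.8) above Aire-stage cells in the control libraries. Saa3 was at 684, 371 and 1952 CPM in the same cells, but 1 cell of Cd40-/- Control held 1266 of its 3384 UMIs. Fabp6 stood at 690 CPM without and 7.88 CPM with the antibody in wild-type mice, and of Apoa1, at 338 CPM in WT-Control, no UMI was found in the 57 cells of WT-RANKL-Ab. Saa1, Saa3 and Fabp9 were 2-fold higher than in Aire-stage cells of WT-Control, 3 of 9 members against 10.3% of genes. Fabp9 was also 2-fold higher than in Aire-stage cells in the enterohepatic and microfold cells of both control libraries.

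Tuft cells, chemosensory epithelial cells, were low for most members. Against Aire-stage cells of WT-Control, Fabp6 (17.6 CPM), Apoa4 (20.6 CPM) and Apoa1 (26.6 CPM) had ratios of 0.0371, 0.0994 and 0.118, and 5 of 9 members were 2-fold lower, against 25.4% of genes. Saa3 was at 247, 23.7, 202 and 25.2 CPM in tuft cells of the 4 libraries. The last level rests on few UMIs: 1 tuft cell of Cd40-/- RANKL-Ab held 8 Saa3 UMIs. Without barcodes found in more than 1 library it was 25.6 CPM (11.7 to 48.6) from 9 UMIs. Fabp1 was not lower in the antibody libraries, at 26.9, 33.9, 24.8 and 58.7 CPM with intervals of 21.4 to 33.4 CPM in WT-Control and 28.0 to 40.6 CPM in WT-RANKL-Ab. Over the whole post-Aire class all 9 members were 2-fold lower in WT-RANKL-Ab than in WT-Control, against 21.8% of genes, and within tuft cells alone 6 of 9 were (Saa1, Saa3, Apoa1, Apoa4, Apoc3 and Crp), against 5.48%. In tuft cells of Cd40-/- Control 4 of 9 were 2-fold lower than in WT-Control (Apoa1, Apoa4, Apoc3 and Crp), against 4.14% of genes. Among the 74 neuroendocrine cells of WT-Control, Apoa1 was at 453 CPM (397 to 514) and Saa3 at 441 CPM (387 to 502).

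**Figure D3:**
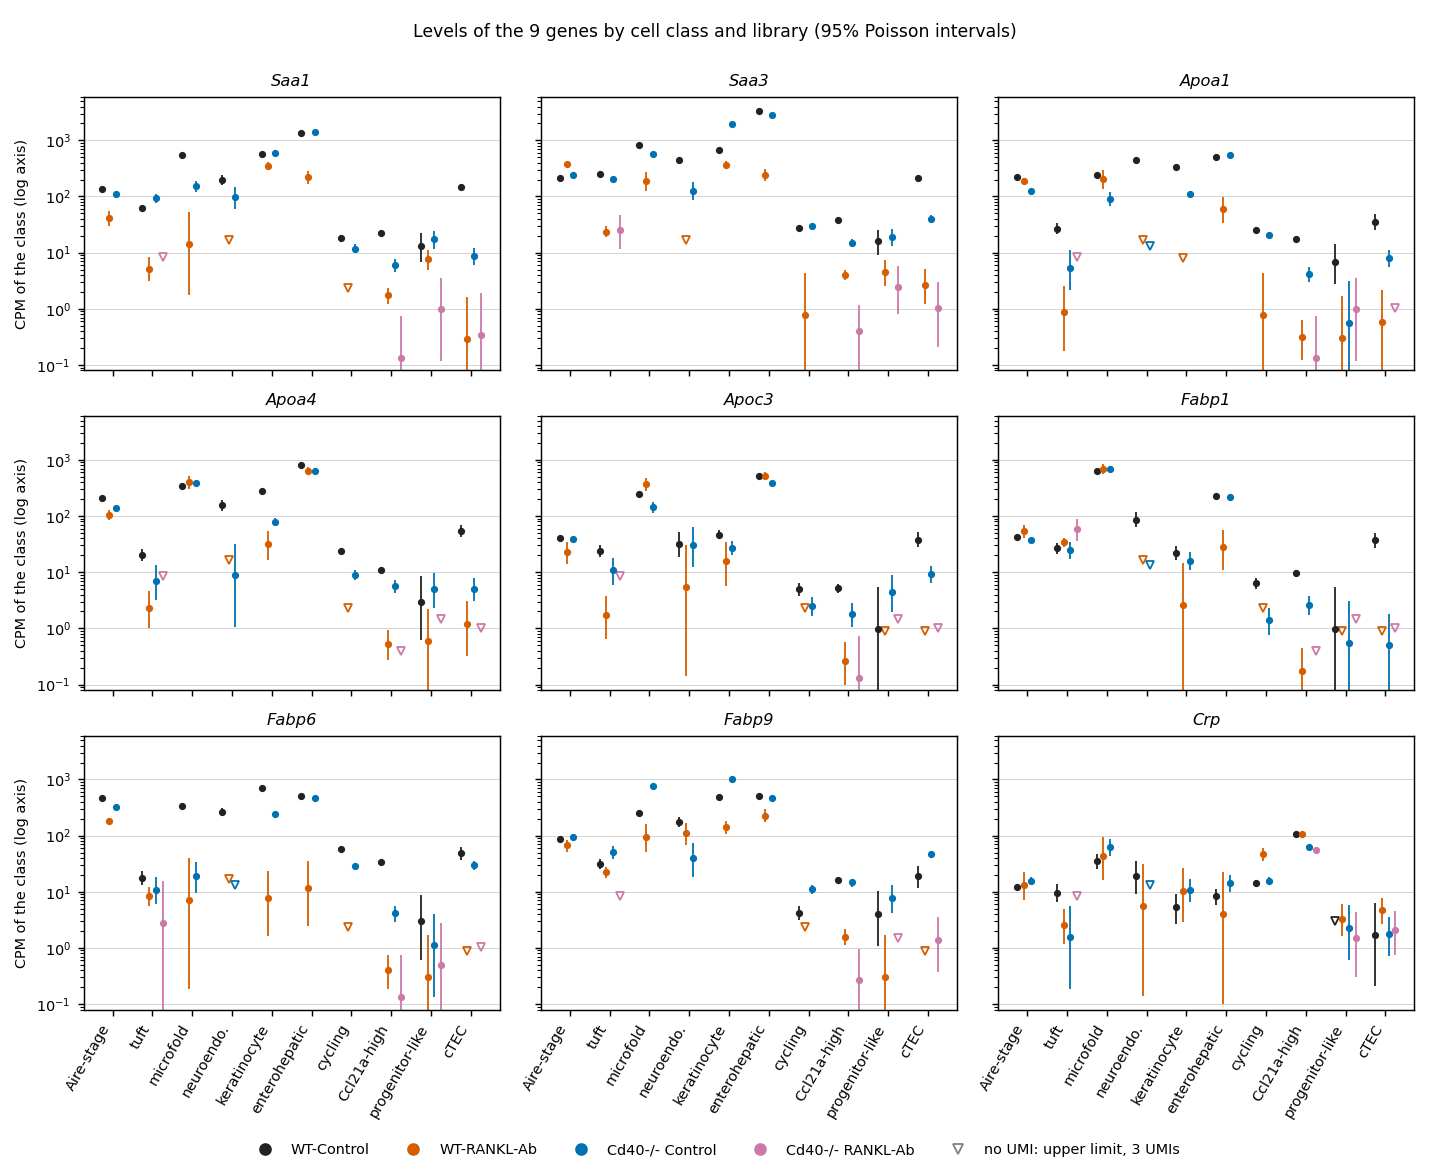
Level of each member in CPM (vertical log axis) in 10 cell classes with at least 30 cells, with 1 point per library and 95% Poisson intervals. Open triangles are upper limits where no UMI was found. Saa1 and Saa3 peak in enterohepatic cells of both control libraries, Fabp1 in microfold cells, and Crp in Ccl21a-high cells at 107 CPM in WT-Control.

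Crp had its highest level of WT-Control in Ccl21a-high mTECs, the cells that attract thymocytes with the chemokine CCL21 and lie before the Aire stage. Its level there was 107 CPM (103 to 112) in WT-Control, 109 CPM (104 to 113) in WT-RANKL-Ab, and in the Cd40-/- mice 62.4 CPM (57.6 to 67.5) with control IgG and 55.1 CPM (49.9 to 60.6) with the antibody. Within either genotype the intervals of the antibody and control libraries overlapped, while both Cd40-/- libraries lay below both wild-type libraries without overlap of their intervals. The share of cells with a Crp UMI was 35.4%, 35.6%, 19.9% and 23.0%, and after thinning to 1000 UMIs 10.3%, 9.31%, 4.97% and 5.40%. Ccl21a-high cells held 67.3%, 87.0%, 41.9% and 83.0% of all Crp UMIs of their library. In Cd40-/- Control the level in microfold cells, 61.9 CPM (43.4 to 85.7), did not differ from that of Ccl21a-high cells beyond counting error. Against Aire-stage cells the Ccl21a-high ratio was 8.84 (7.79 to 10.1) in WT-Control and 3.97 (3.37 to 4.70) in Cd40-/- Control. The other 8 members were 2-fold lower in Ccl21a-high than Aire-stage cells of WT-Control, against 29.5% of genes.

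In progenitor-like cells Crp was not found in 130 cells of WT-Control, which allows a share of cells with a UMI of up to 2.31%, and it was at 3.33, 2.22 and 1.47 CPM in the other libraries. cTECs had 1.73, 4.71, 1.76 and 2.05 CPM. The UMIs of Crp were also less concentrated than those of any other member. In WT-Control the cells with most Crp that together held 50% of its UMIs numbered 380, and no cell held more than 15. Cells with at least 1 UMI numbered 1672 for Crp, against 2558 for Saa3 and 1877 for Saa1. Ccl21a-high cells numbered 2984 of 10218, 3248 of 7164, 1645 of 8591 and 934 of 2082 in the 4 libraries. Without barcodes found in more than 1 library, the log2 ratio of Crp over all cells of Cd40-/- RANKL-Ab against WT-Control went from -0.40 to -0.10, and its level from 26.1 to 32.1 CPM. In Ccl21a-high cells these barcodes made little difference, with 107, 109, 63.5 and 57.9 CPM without them. At the class levels of WT-Control, the class makeup of WT-RANKL-Ab would give 55.6 CPM of Crp, where 58.0 CPM were measured. For Cd40-/- Control the same calculation gives 26.5 CPM against 22.4 CPM measured, and for Cd40-/- RANKL-Ab 47.4 CPM against 26.1 CPM. It takes each class as alike in all libraries, which was not tested.

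The other 8 members were concentrated in few cells. In WT-Control 50% of the UMIs were held by 51 cells for Fabp1, 52 for Fabp9, 53 for Apoa1, 55 for Fabp6, 63 for Saa3, 65 for Apoc3, 95 for Saa1 and 100 for Apoa4, between 0.499% and 0.979% of the cells of the library. A single enterohepatic cell held 2031 Saa3 UMIs, 10.3% of all UMIs of that cell. The fullest Fabp6 cell, with 651 UMIs, was an Aire-stage cell, and the fullest Fabp9 cell, with 408 UMIs, passed no gate. In WT-RANKL-Ab as few as 3 cells held 50% of the Apoa1 UMIs and 4 cells 50% of the Saa1 UMIs, and 10 cells held 72.2% of the latter. Levels in that library therefore rest on a handful of cells.

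**Figure D4:**
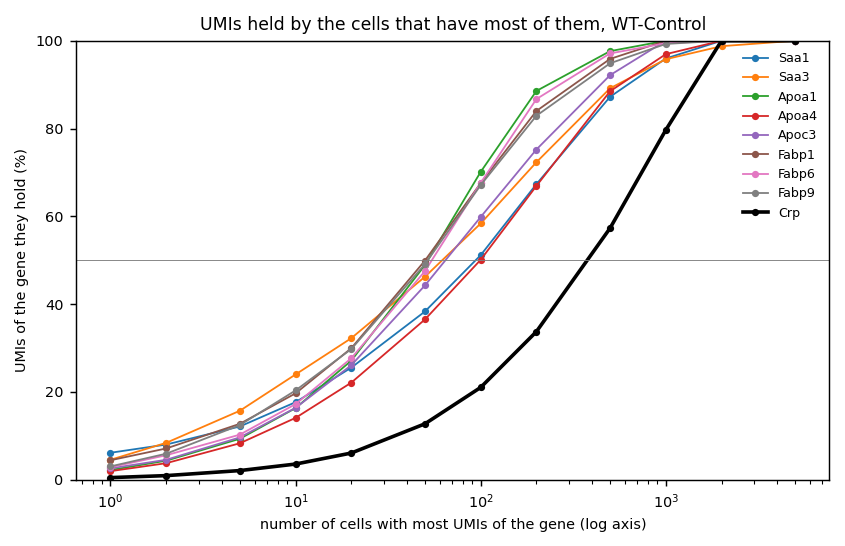
Share of a member's UMIs in WT-Control (vertical axis, percent) held by the given number of cells that have most of them (horizontal log axis), with 1 line per member and a grey line at 50%. For 8 members 50% is reached between 51 and 100 cells, and for Crp (black) at 380 cells.

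Most cells held 5 or more UMIs of none of these 8 genes. This was so for 79.5% of all cells of WT-Control, for 69.2% of Aire-stage cells (1362 of 1968), 60.1% of post-Aire cells and 37.6% of enterohepatic cells (169 of 450). In Ccl21a-high cells the share was 98.3%. Over all cells WT-RANKL-Ab had 97.7% such cells and Cd40-/- Control 84.5%, and in Cd40-/- RANKL-Ab it was so for 2080 of 2082 cells. Of the Aire-stage cells of WT-Control, 404 held 5 or more UMIs of exactly 1 of the genes and 202 of more than 1.

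Apoa4 shared cells with both of its neighbouring apolipoprotein genes. Of 52 Aire-stage cells of WT-Control with 5 or more Apoc3 UMIs, 43 (82.7%) also held 5 or more Apoa4 UMIs, 9.57 times the number that unrelated genes of these frequencies would give. In post-Aire cells this was so for 83 of 109 (76.1%), and in Cd40-/- Control for 16 of 23 Aire-stage cells (69.6%) and 39 of 48 post-Aire cells (81.3%). Of 90 Aire-stage cells with Apoa1, 45 (50%) held Apoa4 as well, 5.79 times the number for unrelated genes. Apoa1 and Apoc3 shared 20 Aire-stage cells in WT-Control, 8.41 times the number for unrelated genes, but 1 in Cd40-/- Control, 1.07 times. In post-Aire cells these 2 genes shared 35 cells in WT-Control and 13 in Cd40-/- Control, 5.87 and 7.18 times the number for unrelated genes. Of Saa1 cells, 59 of 138 (42.8%) in the Aire stage and 139 of 223 (62.3%) in post-Aire cells also held 5 or more Saa3 UMIs. Cells that are deep or rich in RNA raise every such overlap, and these values are a description across cells of 1 library.

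**Figure D5:**
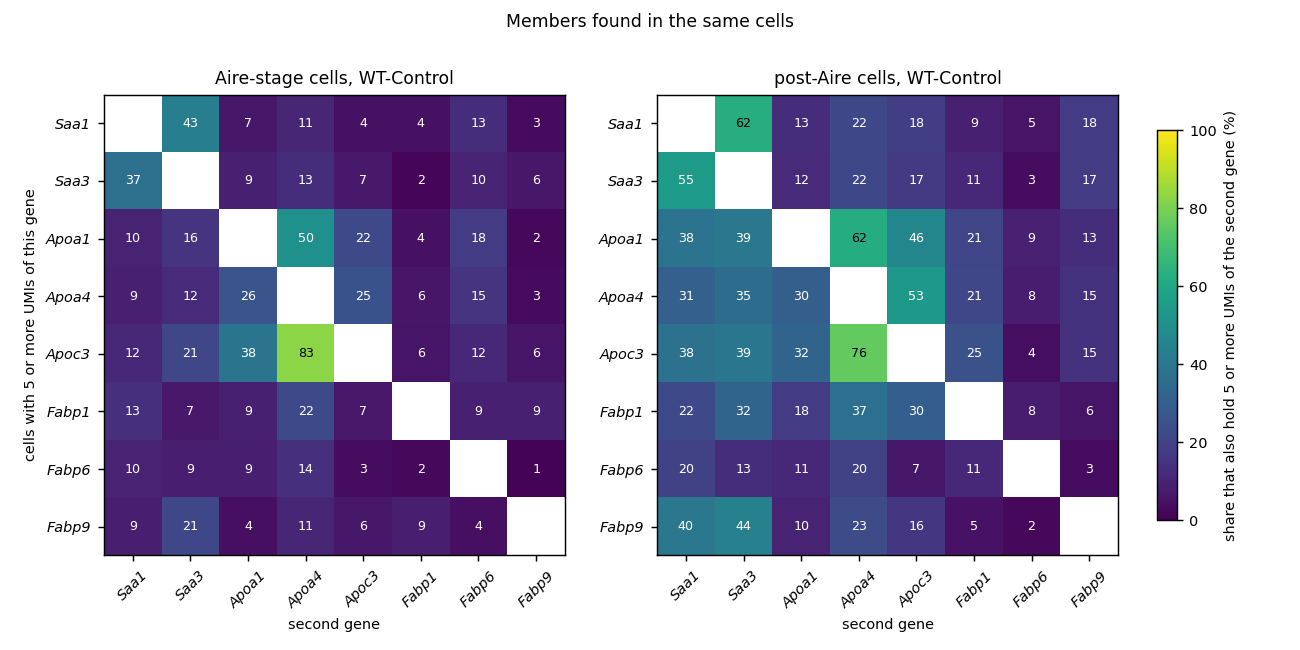
Of the cells with 5 or more UMIs of the gene in a row, the share (color, percent, also printed) that held 5 or more UMIs of the gene in a column, in Aire-stage and post-Aire cells of WT-Control. The brightest field is Apoc3 with Apoa4, at 82.7% in Aire-stage and 76.1% in post-Aire cells.

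Aire-stage and ungated cells of WT-Control were also ordered by their own Aire level: no Aire UMI (1303 cells), under 3 (697), 3 to 6 (697), 6 to 9 (484) and at least 9 (787) Aire UMIs per 10000. By the gates, the bins of no Aire UMI and under 3 held ungated cells alone, and the other bins Aire-stage cells alone. A step between under 3 and 3 to 6 is therefore also a step between classes. Along these bins Saa3 stood at 987, 601, 262, 234 and 148 CPM and Saa1 at 444, 284, 149, 169 and 95.7 CPM, highest without Aire UMIs. Fabp9 was likewise highest without Aire, at 510, 225, 80.4, 112 and 72.1 CPM. Apoa1 had the opposite order, at 94.4, 147, 199, 205 and 266 CPM, and Apoa4 was at 102, 86.6, 159.7, 231 and 237 CPM, with its upper values in the bins of most Aire. Fabp6 was at 166, 270.3, 525, 473 and 425 CPM, highest in the middle bin, and Crp showed no order, at 14.5, 10.3, 13, 10.2 and 12.6 CPM. Cells without an Aire UMI had a median of 2318 UMIs and the other bins 10478 to 11902, so depth moved with the first bin and its part was not tested. In the same bins of Cd40-/- Control, Saa3 was at 617, 309, 352, 231 and 163 CPM, and Apoa1, at 135, 99.8, 79.0, 135 and 158 CPM, did not have the order of WT-Control. In WT-RANKL-Ab, with 40 to 104 cells in each bin with Aire, Saa3 was at 98.4, 94.1, 450.2, 447 and 241 CPM and was not highest without Aire UMIs. The bins of that library had medians of 1472, 10132, 4421, 2268 and 1892 UMIs, so depth differed among them too.

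Within Aire-stage cells the wild-type libraries differed less than over all cells. Depth differed as well: 198 cells held 972389 UMIs in WT-RANKL-Ab, and 1968 cells held 22522964 in WT-Control. By Aire level (3 to 6, 6 to 9, at least 9), median UMIs were 4421, 2268 and 1892 in WT-RANKL-Ab. In WT-Control they were 11157, 11902 and 10478. A shallow cell passes the Aire gate with fewer Aire UMIs, so the classes may not hold like cells, and the part of depth was not tested. Saa1 was at 41.1 CPM (29.4 to 56.0) in WT-RANKL-Ab, 3.27-fold (2.40 to 4.59) below WT-Control, and Fabp6 at 181 CPM (155 to 209.8), 2.62-fold (2.26 to 3.06) below. Apoa4 was 1.99-fold (1.64 to 2.45) and Apoc3 1.83-fold (1.20 to 2.94) lower, whereas Saa3 was 1.77-fold (1.59 to 1.97) higher. Only Saa1 and Fabp6 were 2-fold lower with 1 CPM added, 2 of 9 members against 18.1% of 17060 genes. The count was 3 without shared barcodes, 4 with cells of at least 2000 UMIs, 4 with doubled gates and 6 without the fullest cell of each group. For these settings the share of all genes was not computed, so nothing is read from the counts. Of the 52 Fabp1 UMIs in these 198 cells, 44 were in 1 cell, and without the fullest cell of each library its log2 ratio went from 0.33 to -2.06.

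In Aire-stage cells of Cd40-/- Control, none of the 9 members passed the limit against WT-Control, where 1.76% of genes were lower. Apoa1 was 1.78-fold (1.68 to 1.89) and Fabp6 1.49-fold (1.43 to 1.54) lower, Apoa4 1.46-fold (1.38 to 1.54) and Saa1 1.23-fold (1.15 to 1.32) lower, and Saa3 was 1.14-fold (1.09 to 1.19) higher. With the class levels of WT-Control, the makeup of WT-RANKL-Ab would give 239 CPM of Saa3 where 29.3 were measured, 140 CPM of Saa1 where 18.7 were measured and 94.4 CPM of Fabp6 where 13.9 were measured. For Cd40-/- Control it would give 404 CPM of Saa3 against 388 measured, and 209 CPM of Fabp6 against 126. For Cd40-/- RANKL-Ab it would give 190 CPM of Saa3 against 1.46 measured. Such values take each class as alike in all libraries. Ungated cells and cells past more than 1 gate are not cell types, and whether their contents differed between libraries was not tested. The gaps therefore do not separate makeup from level.

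Ccl21a-high cells showed the members at low levels that moved with the library. Saa3 was at 38.5, 3.99, 14.7 and 0.398 CPM and Saa1 at 22.4, 1.73, 6.02 and 0.133 CPM in this class. Fabp6 was at 33.6, 0.399, 4.11 and 0.133 CPM. Of the 9 members 8 were 2-fold lower in WT-RANKL-Ab than in WT-Control within this class, against 3.48% of genes, the exception being Crp. In Cd40-/- Control 6 of 9 were 2-fold lower than in WT-Control (Saa1, Saa3, Apoa1, Apoc3, Fabp1 and Fabp6), against 3.08% of genes. Saa3, Saa1 and Fabp6 had the same order of libraries here as over all cells, but the control libraries of both genotypes lay further apart. Over all cells, Saa3 read 471 CPM for WT-Control against 388 CPM for Cd40-/- Control. For Fabp6 these whole-library values were 243 and 126 CPM. How much of the Ccl21a-high levels was free RNA taken up from other cells was not tested. The 130 cTECs of WT-Control likewise held 217 CPM of Saa3, close to the level of Aire-stage cells of that library, against 2.65, 39.9 and 1.03 CPM in the other libraries.

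Other genes of the same families were counted from lists, by the 2-fold limit in post-Aire against Aire-stage cells of WT-Control. Of 20 acute-phase genes 19 were tested, 5 were higher (Saa2, Hpx, Orm1, Lcn2 and C3) and 1 lower (Itih3), against 10.5% and 3.88% of all genes, with a median log2 ratio of 0.33 beside 0.14 for all genes. Saa2, the paralog of Saa1, was 2.78-fold (2.59 to 2.99) higher, and Saa4, which lies between Saa3 and Saa1 and is expressed constitutively in liver, had a ratio of 1.16 (0.928 to 1.46). Orm1, the plasma protein orosomucoid, was 6.24-fold (5.50 to 7.08) higher. Lcn2, a siderophore-binding protein, and C3, the complement component, were 3.58- and 2.83-fold higher, and the iron hormone Hamp, with a ratio of 1.73, stood at 879.5 CPM in microfold cells.

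Of 15 apolipoprotein genes 12 were tested and 6 were higher (Apob, Apoc1, Apoc4, Apoe, Apof and Apobr), none lower, against 10.5% and 3.88% of all genes, with a median of 1.07. Apof was 10.2-fold (5.73 to 19.6), Apoc1 3.37-fold (3.01 to 3.77) and Apoe 2.53-fold (2.41 to 2.66) higher. Apoe, the carrier of remnant lipoproteins, had another distribution than the members: it stood at 3262 CPM in Ccl21a-high cells, and over all cells at 1043, 1821, 1065 and 2284 CPM in the 4 libraries. Apoa5, 27937 bases from Apoa4, had a ratio of 1.34 (0.901 to 1.98) and Apod of 0.888 (0.817 to 0.965). Of 12 fatty-acid-binding and related carriers 11 were tested, 2 were higher (Fabp2 and Rbp2) and 1 lower (Fabp7), against the same shares of all genes, with a median of 0.23. Fabp2 and Rbp2, both carriers of the enterocyte, had ratios of 5.23 (4.76 to 5.77) and 9.67 (6.02 to 16.3). Fabp4 and Fabp5, neighbours of Fabp9, had ratios of 1.29 and 0.943.

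Of 18 regulators 17 were tested, 7 were higher (Hnf4a, Hnf4g, Cebpa, Cebpb, Creb3l3, Foxa2 and Foxa3) and 4 lower (among them Aire, Fezf2 and Nr1h4), against 10.5% and 3.88% of all genes, with a median of 0.17. Hnf4a, with a ratio of 11.7 (5.74 to 26.9), and Hnf4g, with 3.27 (2.73 to 3.93), are also markers of the enterohepatic gate and had to be higher, and Aire (0.311) is the gate of the Aire stage. Fezf2, a second driver of tissue-restricted genes, had a ratio of 0.490 (0.474 to 0.506) and Stat3, which carries the acute-phase signal of IL-6, of 0.719 (0.678 to 0.762). Over all cells, 15 of 19 acute-phase genes, 7 of 12 apolipoprotein genes, 8 of 12 carriers and 8 of 18 regulators were 2-fold lower in WT-RANKL-Ab than in WT-Control, where 13.6% of all genes were, and 1, Serpina3n, was higher, against 4.45% of genes. In Cd40-/- Control these counts were 0 of 19, 2 of 13, 2 of 12 and 0 of 18, against 1.11% of all genes.

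Likeness of pattern was measured as the Pearson correlation of log2(CPM + 1) over 38 groups of class and library with at least 100 cells, among 16141 genes that leave out the 9 members. These groups share libraries, so no p is given. Most like Saa1 were Spink4 (0.967) and Prap1 (0.960), most like Saa3 Ptgds (0.962) and S100a9 (0.956), and most like Fabp6 Psca (0.959) and S100a9 (0.955). For Apoa1 they were Psca (0.946) and Pde6h (0.941), for Apoa4 Lypd8 (0.95) and Tnmd (0.948), for Apoc3 Nostrin (0.95) and Prap1 (0.95), for Fabp1 Nostrin (0.936) and Rps6kl1 (0.930) and for Fabp9 Lypd2 (0.956) and Asprv1 (0.954). The nearest genes to Crp were Pthlh (0.95) and Xylt1 (0.919). Among the members themselves, Saa1 with Saa3 (0.972), Apoa4 with Apoc3 (0.971) and Apoa1 with Apoa4 (0.966) had higher values than the genes named for each of these members. With Aire itself the correlation was 0.733 to 0.874 for the other 8 members and 0.281 for Crp.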

How the data were processed

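TECs of 4 conditions were profiled by droplet-based scRNA-seq, with 1 library of 3 pooled mice each. Reads had been trimmed (Fastp) and aligned to mm10 by the authors, who deposited whole UMI counts per gene and barcode, made with Cell Ranger 5.0.1 according to the paper and the file headers. The labels name version 5.1 of Cell Ranger. For the library kit the paper names another version than the labels do. Cells were kept from 200 genes upwards and up to 25% mitochondrial UMIs. Cells were put into 14 classes by fixed markers per 10000 UMIs: at least 3 for Aire, 100 for Ccl21a and for the 6 cTEC markers together, 10 for the progenitor-like and each of the 6 mimetic lists, and 5 for cycling cells. These limits were set on the markers after the files had been seen, with earlier results on the members known. Cells with 3 of the thymocyte markers formed a class of their own. No doublet caller was run, and cells past more than 1 gate were left out of the classes.

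UMIs of a class were summed and scaled to 1000000. Intervals are exact at the 95% level: Poisson for levels, conditional binomial for ratios. Ratios over all genes used 1 CPM added, genes with at least 20 UMIs in both groups together and a limit of 2-fold. With 1 library per condition no test was run and no p is given. For thinned shares each cell was reduced to 1000 UMIs, and 570, 492, 806 and 74 shallower cells of the libraries had no thinned value. The 9 members, the pathway lists and the rules were chosen with earlier results of these data known. From each pathway list the 3 genes with most UMIs and the 2 furthest from 1 in the post-Aire ratio of WT-Control were named, with the genomic neighbours of members, Aire, Hnf4a and Hnf4g, and for likeness the 2 best correlated genes per member. Some gene names and values are not reported here. Alternatives were a 13% mitochondrial limit, cells with at least 2000 UMIs, 10 CPM added, other UMI minimums, TMM factors (edgeR 4.0.16, R 4.3.3), doubled gates, cells past more than 1 gate given to the highest score, other post-Aire classes and removal of the fullest cells. Removal of shared barcodes was added after the data had been seen. Python 3.11.15 with numpy 2.4.6, scipy 1.17.1, pandas 2.3.3 and matplotlib 3.10.9 was used, and the scripts were tested on simulated data.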

Additional observations from a re-analysis of the deposited data

Results flagged for a closer look

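For 3 members the direction of the post-Aire against Aire-stage ratio differed between the wild-type libraries, and with 1 library each the difference was not tested. Saa3 had a log2 ratio of 2.86 in WT-Control and -2.41 in WT-RANKL-Ab, a difference of 5.27. Apoa1 had 0.45 and -4.04, a difference of 4.49, and Apoa4 1.01 and -0.94, a difference of 1.95. In WT-RANKL-Ab 554 of the 742 post-Aire cells were tuft cells, against 393 of 1389 in WT-Control, and there were 198 Aire-stage cells. The part of this composition in the difference was not tested.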

How the results depend on the processing

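No paired analysis was possible because each condition has 1 library. Over all cells, the 8 members lower in WT-RANKL-Ab and the 8 lower in Cd40-/- RANKL-Ab against WT-Control stayed at 8 under every alternative run. The count of members 2-fold higher in post-Aire cells of WT-Control ranged from 4 to 6, and was lowest without enterohepatic cells, where Apoa4 turned from 1.01 to -0.33 on the log2 scale. With only post-Aire cells that had no Aire UMI, 1 member (Fabp6) was 2-fold lower where none had been. In Aire-stage cells, the count lower in WT-RANKL-Ab went from 2 to 4 with cells of at least 2000 UMIs, to 4 with doubled gates and to 6 without the fullest cell of each group. With TMM factors 1 member (Fabp6) was lower over all cells of Cd40-/- Control, where none had been. Apart from the removal of cells by construction, the cause of these changes was not tested. The share of all genes past the limit was not computed under the alternatives, so these counts of members have no share beside them. Of 612 log2 ratios under alternatives, 17 had the other sign, 1 of them (Apoa4, above) for a ratio of at least 2-fold, and 399 moved by less than their counting error. The Cd40-/- RANKL-Ab library held 1 to 48 UMIs of each of the 8 members other than Crp, so its intervals are wide.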
